A study of Mus musculus with 6 samples.

Results

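Head-to-head promoters were examined in chromatin accessibility data from peripheral blood white cells of mice. A head-to-head pair was defined as 2 protein-coding genes on opposite strands that point away from each other, with their annotated 5′ ends at most 1000 bp apart. The GENCODE M39 annotation of GRCm39 held 386 such pairs on chromosomes 1 to 19, made of 763 genes, or 3.7% of the protein-coding genes there. The 5′ ends are the outermost annotated starts, so 711 further pairs, whose starts cross by up to 1000 bp, fall outside this definition. The members were the merged accessible regions that overlapped the interval between both 5′ ends, extended by 250 bp on each side. There were 343 member regions among 62876 merged regions of the whole series. They were compared with 8558 regions at single-gene promoters, where no other protein-coding 5′ end lay within 1000 bp. The rule used gene positions alone and no measured height.

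A head-to-head pair shares a short stretch of DNA from which transcription runs in both directions. Such promoters are usually rich in CpG, are often free of a TATA box, and commonly serve genes that most cells need, among them genes of DNA repair, mitochondria and translation. Factors known at these promoters include NRF1, the ETS family member GABPA, YY1, and the CCAAT-binding factor NFY. Replication-dependent histone genes form a separate class of head-to-head pairs, in which an H2A and an H2B gene share a TATA- and CCAAT-bearing interval.

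The assay was ATAC-seq, in which the Tn5 transposase cuts open DNA and leaves sequencing adapters. Unsorted white blood cells were taken after lysis of red cells, and the labels put 3 libraries in a control group and 3 in a group named for high-altitude de-acclimatization (HADA). Per the study's methods, the mice were male C57BL/6j animals. By the same methods, the HADA mice lived in a hypobaric chamber that simulated high altitude and then returned to normal oxygen. Per the study's results text, the controls stayed at normal oxygen. The methods give the age of the mice only at purchase. The labels name no sex, age or sampling time, and do not say which animals the libraries came from. The p-values therefore measure only the spread between these libraries, which may be technical. No gene was altered in either group. The labels and methods call the cells leukocytes, while the study's results text calls them mononuclear cells, which would hold few neutrophils.

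The control lists held from 34045 to 41475 peaks, fewer than the 44044 to 45799 of the HADA lists. Total reads are unknown, and the background pileup, used as a proxy of depth, ranged from 1.69 to 2.05 among controls and from 1.99 to 2.34 among HADA libraries. The gene starts of all 6 platelet and erythroid markers and all 5 markers of other tissues had no peak in any library, and T cell, B cell, NK cell, neutrophil and monocyte lists had peaks. Markers with no peak in any library were Cd3d and Cd28 of 9 T cell genes, Ncr1, Klrb1c and Klre1 of 6 NK cell genes, Mmp9 and Ly6g of 8 neutrophil genes, and Csf1r, Cx3cr1 and Ccr2 of 6 monocyte genes. Over 7 B cell genes, the summed summit pileup relative to background ranged from 13.7 to 165 among controls and from 408 to 458 among HADA libraries. Over the T cell genes the ranges were 61.2 to 144 and 275 to 305, over the monocyte genes 20.4 to 29.6 and 40.7 to 53, and over the NK cell genes, where the groups overlapped, 11.5 to 34.9 and 33.8 to 46.6. Over the neutrophil genes the order was opposite, with 93.5 to 254 among controls and 22.9 to 54.3 among HADA libraries. These sums moved with the groups, and their part in the group differences was not tested. In such mixed cells, fewer cells of a type and less accessibility per cell cannot be told apart. Control 3 had the lowest B cell sum and the highest neutrophil sum of the 6 libraries.

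The median distance between paired 5′ ends was 84 bp, with quartiles of 36 and 192 bp and a range of 1 to 984 bp. The following intervals show the DNA between the 5′ ends of pairs whose results are given further on. They are from the plus strand of GRCm39, so that the minus-strand gene starts just left of the first base and the plus-strand gene just right of the last. Capitals mark matches, on either strand, to NRF1 (GCGCATGCG), SP (GGGGCGGGG), ETS (CCGGAAGT), NFY (CCAATCA) or the TATA box (TATAAAA). The intervals are chr11:101442782-101442961 for Brca1-Nbr1, chr17:15720014-15720149 for Psmb1-Tbp, chr1:75455952-75456150 for Chpf-Tmem198, chr6:83302891-83302996 for Mthfd2-Mob1a, and chr1:128030802-128031005 for Zranb3-R3hdm1. Those of the histone pairs are chr13:23758371-23758554 for H2bc7-H2ac7 and chr13:23755395-23755569 for H2ac8-H2bc8. The histone pairs were picked for display after their values were seen.
Brca1-Nbr1: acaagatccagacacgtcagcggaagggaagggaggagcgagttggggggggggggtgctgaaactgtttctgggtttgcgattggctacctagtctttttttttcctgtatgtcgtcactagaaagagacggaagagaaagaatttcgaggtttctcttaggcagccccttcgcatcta
Psmb1-Tbp: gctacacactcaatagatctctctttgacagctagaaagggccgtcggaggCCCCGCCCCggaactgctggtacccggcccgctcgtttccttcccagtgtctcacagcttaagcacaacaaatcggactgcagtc
Chpf-Tmem198: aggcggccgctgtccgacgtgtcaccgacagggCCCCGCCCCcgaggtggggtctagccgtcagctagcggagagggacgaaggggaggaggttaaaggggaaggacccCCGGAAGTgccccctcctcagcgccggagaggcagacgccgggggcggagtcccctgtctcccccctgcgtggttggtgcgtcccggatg
Mthfd2-Mob1a: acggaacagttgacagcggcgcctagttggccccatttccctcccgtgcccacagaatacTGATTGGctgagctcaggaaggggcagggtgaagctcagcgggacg
Zranb3-R3hdm1: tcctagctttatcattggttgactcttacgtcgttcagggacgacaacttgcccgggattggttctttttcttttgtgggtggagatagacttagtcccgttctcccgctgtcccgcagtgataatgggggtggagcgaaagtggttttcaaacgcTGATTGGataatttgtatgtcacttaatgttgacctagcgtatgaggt
H2bc7-H2ac7: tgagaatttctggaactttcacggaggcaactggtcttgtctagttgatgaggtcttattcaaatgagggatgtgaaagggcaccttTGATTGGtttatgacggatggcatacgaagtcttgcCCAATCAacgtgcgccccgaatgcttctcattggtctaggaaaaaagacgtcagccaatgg
H2ac8-H2bc8: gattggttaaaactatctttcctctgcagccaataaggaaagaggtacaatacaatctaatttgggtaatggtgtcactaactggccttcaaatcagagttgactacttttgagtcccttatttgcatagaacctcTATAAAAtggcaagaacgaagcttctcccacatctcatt

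The Brca1-Nbr1 interval held no match to the 13 motifs searched. Psmb1-Tbp held an SP match, Chpf-Tmem198 an SP and an ETS match, and Mthfd2-Mob1a and Zranb3-R3hdm1 an NFY match each. H2bc7-H2ac7 held an NFY match on either strand, and H2ac8-H2bc8 a TATA match and no NFY match. Among the 318 intervals of at most 300 bp outside chromosome 18, 117 held at least 1 match to any of 13 motifs searched, and NFY was the most frequent, in 48 intervals or 15.1%. NFY matches were in 9 of 11 histone intervals and in 39 of 307 others. The TATA match of H2ac8-H2bc8 was the only 1 in the 11 histone intervals and in all 318.

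Nearly all head-to-head pairs were open in these cells. A merged region lay at 351 of 386 pairs, or 90.9%, and the interval carried a peak in all 6 libraries at 345 pairs. Per library, the share of pairs with a peak was 90.4%, 89.9% and 89.4% in control and 90.7%, 90.2% and 90.7% in HADA. The groups overlapped, and the difference of 0.604 percentage points had a two-sided exact permutation p of 0.2 (3 libraries against 3, where the smallest possible p is 0.1). Single-gene promoters had a peak in 39.7% to 43.2% of 18084 starts in control and in 44.9% to 45.4% in HADA libraries. The head-to-head share exceeded the single-gene share by 46.9 ± 1.92 percentage points (SD over 6 libraries), in 6 of 6 libraries (exact sign-flip permutation p = 0.03125, the smallest that 6 libraries allow). The stretches searched were unlike. A pair was searched over its interval and 250 bp on each side, so a peak at either start counted. A single-gene start was searched over 250 bp on each side alone. The part of this in the difference was not tested.

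Among the single-gene promoters, those with a divergent long non-coding RNA within 1000 bp were the class most like the pairs. They had a peak at 66.6% to 69.5% of 1320 starts among controls and at 70.2% to 70.7% among HADA libraries. The head-to-head pairs stood 21 ± 1.28 percentage points above them (SD, n = 6, exact sign-flip permutation p = 0.03125). Here too the stretch searched was longer for a pair and held both of its starts.

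The 35 pairs without a region included genes of the germ line, of imprinted loci and of other organs. Among them were Actl7b-Actl7a, actin-like genes of the testis, Smc1b-Ribc2 with a meiotic cohesin subunit, and H2bc1-H2ac1, a testis pair of histone genes. Sgce-Peg10 and Peg3-Usp29 are imprinted pairs, Kirrel2-Nphs1 holds nephrin of the kidney filter, and Duox2-Duoxa2 makes peroxide in thyroid and epithelia. These were named after their values were seen. At 13 of the 35 pairs a peak lay at the start of the transcript tagged as canonical of at least 1 gene, and at 22 pairs neither gene had one. Rnf151-Rps2 was of the first kind: the canonical start of Rps2, a ribosomal protein gene, had a peak, and the outermost annotated starts of the pair did not.

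One region usually served both genes. Of the pairs with a region, 349 had 1 region and 2 had 2 regions, and 323 of 343 regions (94.2%) spanned both 5′ ends. There were 10 regions that served 2 pairs each. The tallest summit, averaged over libraries, lay at a median distance of 119 bp from the midpoint between the 5′ ends, and within 100 bp at 139 regions (40.5%). Summits fell on the side of the plus-strand gene at 185 regions and on that of the minus-strand gene at 158. By the median summit position, 82 summits lay between the 5′ ends, 216 in an untranslated exon of a paired gene, 34 in a coding exon and 11 in an intron. At single-gene promoters, summits lay downstream of the annotated 5′ end in 77.6% of regions, and the median position over all of them was 129 bp downstream.

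**Figure D1:**
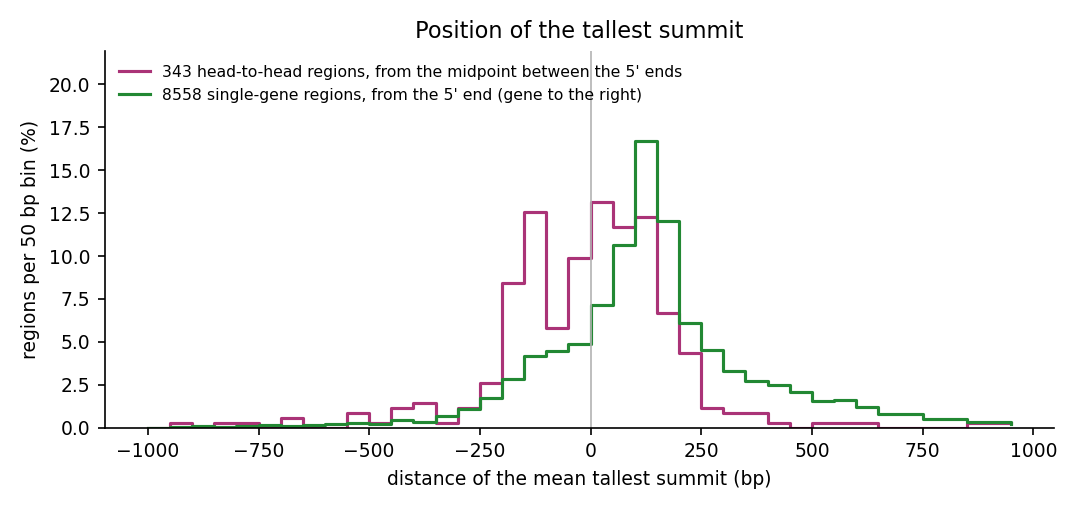
Share of regions (%) per 50 bp bin of the distance of the tallest summit, averaged over libraries, from the midpoint between paired 5′ ends (343 head-to-head regions) or from the 5′ end (8558 single-gene regions, gene body to the right). Head-to-head summits lie on both sides of the midpoint, and 77.6% of single-gene summits lie downstream of the start.

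The HADA libraries had more of these summits between the paired starts. The share between both 5′ ends was 22%, 20.6% and 20.8% for controls 1 to 3, and 24.6%, 25% and 24.6% for HADA 1 to 3, so the groups did not overlap. The means were 21.2 ± 0.729% and 24.7 ± 0.253% (SD, n = 3 each, exact permutation p = 0.1, the lowest that 3 against 3 can give). Across pairs the share varied with the spacing of the starts, from 5.8% for pairs up to 100 bp apart to 79.4% for those over 300 and up to 500 bp apart, and was 51.6% for those over 500 bp apart.

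Head-to-head regions were among the tallest and most constant in the data. Of 343 regions, 336 had a peak in all 6 libraries (98%), against 91.2% of regions at genes with a divergent non-coding RNA, 83.4% of single-gene regions and 38.1% of all regions. The remaining regions had a peak in 5 libraries (3 regions), in 3 (2 regions), in 2 (1 region) or in 1 (1 region). The median summit pileup, which is the number of reads stacked at the tallest point, was 160, 134 and 152 among controls and 264, 218 and 223 among HADA libraries. For single-gene regions these medians were 111, 91 and 92, and 189, 157 and 163. The head-to-head median exceeded the single-gene median by 0.54 ± 0.10 on the log2 scale (SD, n = 6 libraries, exact sign-flip permutation p = 0.03125), a ratio of 1.45, in 6 of 6 libraries. Against genes with a divergent non-coding RNA the ratio was 1.18 (difference 0.24 ± 0.09 log2, SD, n = 6, same test and p).

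The median head-to-head peak spanned 940 to 1008 bp among controls and 1048 to 1079 bp among HADA libraries. It was wider than the single-gene median by 50.4 ± 19 bp (SD, n = 6, exact sign-flip permutation p = 0.03125). Against genes with a divergent non-coding RNA the difference was 10.3 ± 14.8 bp, with a p of 0.125 in the same exact test.

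**Figure D2:**
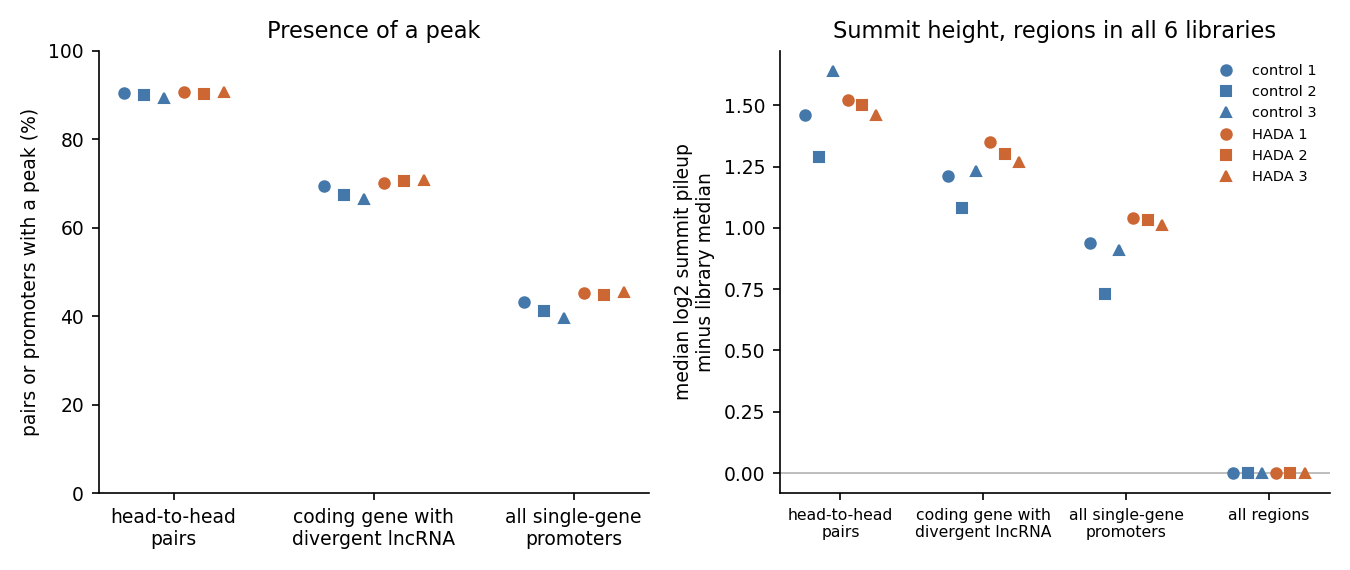
Left, share of pairs or promoters with a peak (%), and right, median log2 summit pileup of regions in all 6 libraries after subtraction of the library median over all such regions. Each point is 1 library (blue control, orange HADA). Head-to-head pairs stand above both single-gene classes in each library, and the HADA points exceed the control points in the single-gene classes but overlap them in the head-to-head class.

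Heights varied widely among the members. As a multiple of the library median over all regions shared by the 6 libraries, the geometric mean height of a member ran from 0.311 to 11.7, with a median of 2.75 and quartiles of 1.63 and 4.19. The height was at or above the library median at 311 of 336 regions (92.6%). The tallest was Smim7-Tmem38a, where Tmem38a encodes a cation channel of the endoplasmic reticulum, with 11.8, 12.4 and 18.7 times the median in control and 10.7, 9.78 and 9.11 times in HADA. Zranb3-R3hdm1, which includes a helicase that remodels stalled replication forks, followed with 10.3 to 17 times in control and 8.69 to 9.78 times in HADA. Cryzl1-Itsn1, Pdcd10-Serpini1 and Cep57-Fam76b completed the 5 tallest.

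The lowest members had few reads at the summit. Asphd1-Sez6l2 had pileups of 14, 15 and 10 in control against 30, 35 and 37 in HADA. Parpbp-Nup37, which holds a recombination inhibitor and a nucleoporin gene, had 15, 17 and 13 against 30, 36 and 40. Nrg4-Tmem266, Tmtc3-Cep290 and Ddx25-Pus3 completed the 5 lowest, and Cep290, a gene of the primary cilium, had 18 to 26 against 35 to 47. Of these 5, Asphd1-Sez6l2 (log2 difference 0.78, limma adjusted p = 0.0381) and Ddx25-Pus3 (0.79, limma adjusted p = 0.0426) were called higher in HADA, each in 1 of the 6 fits that leave out 1 library. The HADA libraries lay above the control libraries in raw pileup at all of these, as did the median of all shared regions. The tallest summit of Ddx25-Pus3 lay 984 bp into Pus3, in an untranslated exon.

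Height was also described by the spacing of the starts, with no test. The median pileup over background, averaged over libraries, was 80.9 for pairs up to 100 bp apart (182 regions), 110 for over 100 and up to 200 bp (79 regions), 113 for over 200 and up to 300 bp (29 regions) and 165 for over 300 and up to 500 bp (17 regions), but 88.3 for 34 regions of pairs over 500 bp apart, near the closest class. The quartiles of the closest class, 49.7 and 123, overlapped those of each other class. The share of pairs with a peak was 91.3%, 92%, 100%, 81% and 85.4% in the same order.

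To compare the groups, log2 pileups were centred on the library median over 23970 shared regions, which sets the median shared region to 0 in each library. The median centred height of head-to-head regions was 1.46, 1.29 and 1.64 for controls 1 to 3 and 1.52, 1.50 and 1.46 for HADA 1 to 3. The groups overlapped, and HADA minus control was 0.03 (exact permutation p = 0.8, n = 3 libraries each). For single-gene regions the same medians were 0.94, 0.73 and 0.91, and 1.04, 1.03 and 1.01, and the groups were apart with a difference of 0.17 (exact permutation p = 0.1). The gap between the classes was therefore tested directly. It was 0.53, 0.56 and 0.73 among controls and 0.48, 0.48 and 0.45 among HADA libraries. Every HADA library had a smaller gap than every control library, the difference was −0.14, and the exact permutation p was 0.1, again the lowest possible. Without control 3, whose gap was the widest, the difference was −0.0864. When pileups were divided by the library background instead, the median shared region was higher by 0.38 log2 in HADA, and changes on the centred scale are relative to that shift.

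Few head-to-head regions differed between the groups in limma with Benjamini-Hochberg adjustment over all 23970 shared regions at 0.05. There were 41 higher and 15 lower in HADA of 336 tested, or 12.2% and 4.46%, and 280 did not pass. At an unadjusted p under 0.05 there were 91 members (27.1%), against 53.2% of all shared regions. Over all shared regions 18.4% were called higher and 24.5% lower, or 42.9% in either direction. Single-gene regions had 22.2% higher and 7.02% lower, and genes with a divergent non-coding RNA had 18.7% and 6.99%. The median absolute difference was 0.21 log2 for the pairs, 0.33 for single-gene regions and 0.53 for all shared regions. Only 5 of the 336 members (1.49%) differed by 2-fold or more, against 25.4% of all shared regions. The library values of the groups did not overlap at 123 members (36.6%), against 60.6% of all shared regions. Over the library background, 94 members were called higher (all regions 32.2%) and 3 lower (all regions 17.6%), so that the split of calls moved from 73.2% to 96.9% higher. With the rank of the authors' fold enrichment, 13 were called higher and 4 lower, where 7.64% and 5.82% of all regions were called.

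The count of calls fell when any 1 HADA library was left out and stayed near 56 when a control was left out. Without HADA 1, 2 or 3 there were 10, 7 or 11 higher and 7, 3 or 3 lower members, and 17.6% to 25.2% of all regions were called. Without control 1, 2 or 3 there were 53, 30 or 32 higher and 8, 26 or 23 lower members. In each of these fits the share of members called (2.98% to 18.2%) was below that of single-gene regions (8.45% to 32.6%) and of all regions (17.6% to 45.3%). Control 3 lay farthest from the HADA libraries of the 3 controls in 31 of 41 members called higher (75.6%, against 76.9% of all regions called higher) and in 14 of 15 called lower (93.3%, against 55.7%). Among the 280 members not called, control 3 was the highest control in 198 (70.7%). The part of the marker differences in these calls was not tested.

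Tall regions were called less often in every class, so calls were also counted at like height. Of members with a mean pileup from 50 to under 100, 21.6% were called, against 38.8% of single-gene regions and 53.1% of all regions of that height. From 100 to under 200 the shares were 20.5%, 32.4% and 44%, and from 200 to under 400 they were 11.4%, 20.1% and 26.3%. At 400 or more, 11.8% of 34 members, 12.6% of 506 single-gene regions and 17.6% of all regions were called. All 4 members called there were lower in HADA (11.8%, against 11.1% of single-gene and 15.5% of all regions). Under 50, 3 of 11 members were called (27.3%), near the 29% of single-gene regions, against 43.1% of all regions.

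**Figure D3:**
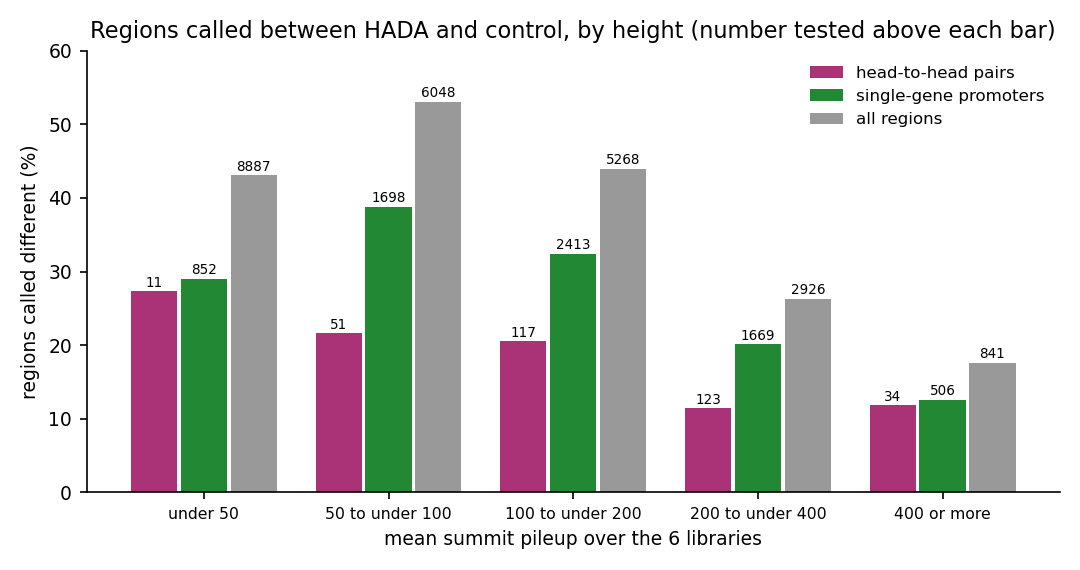
Share of shared regions (%) called different between HADA and control (limma, adjusted p under 0.05), by mean summit pileup over the 6 libraries, with the number of regions tested above each bar. The head-to-head bars are below the single-gene bars at each height, with a small margin in the lowest and highest classes.

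The members called higher in HADA rose by 0.40 to 1.04 on the log2 scale. The groups did not overlap in any of the 41, which were picked by limma from these same values. Elp4-Immp1l, which holds an Elongator subunit and a protease of the inner mitochondrial membrane, had heights of 1.43, 1.31 and 1.02 times the library median in control and 2.38, 2.86 and 2.42 times in HADA. All HADA libraries were above all controls, and the log2 difference was 1.04 ± 0.18 (SE, limma adjusted p = 0.00629).

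Mtrr-Fastkd3 pairs the reductase that reactivates methionine synthase with a mitochondrial RNA-binding protein. Its heights were 0.741, 0.691 and 0.449 for the controls against 1.22, 1.31 and 1.26 for HADA, below the library median in the first group and above it in the second (log2 difference 1.04 ± 0.23, SE, limma adjusted p = 0.00944). Abca17-Abca3 encodes a pair of lipid transporters of the ABC family and had 2.74, 2.24 and 2.04 in control and 4, 4 and 4.23 in HADA (0.81 ± 0.15, limma adjusted p = 0.00681). The other members with the smallest p were Nln-Sgtb (a peptidase and a co-chaperone), Fhl4-Tmem263, Chpf-Tmem198 (with a chondroitin-polymerizing factor), Sptbn4-Blvrb (a spectrin and biliverdin reductase B), 6030458C11Rik-Drosha (with the nuclease that starts microRNA processing), Xrcc3-Zfyve21 (with a gene of recombination repair) and Cc2d1a-Brme1. Their log2 differences were 0.60 to 0.94. With 1 library left out in turn, Xrcc3-Zfyve21 was called in 3 of the 6 fits, Cc2d1a-Brme1 in 4, Sptbn4-Blvrb and 6030458C11Rik-Drosha in 5, and the other 6 of these 10 in all 6. Chpf-Tmem198 had 2.45, 1.91 and 1.51 in control and 3.75, 3.48 and 3.49 in HADA, but its rank of fold enrichment differed by −0.09, so its direction rests on the summit height.

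The members called lower fell by 0.52 to 2.28 on the log2 scale, and the groups did not overlap in 14 of the 15, picked likewise. The strongest were Klhl17-Noc2l and Ppp1r3d-Fam217b. Ppp1r3d encodes a subunit that targets protein phosphatase 1 to glycogen, and the region on chromosome 2 had heights of 3.1, 2.76 and 5.63 in control and 1.12, 0.714 and 0.531 in HADA. Every control library was above every HADA library (log2 difference −2.28 ± 0.32, SE, limma adjusted p = 0.00628). Its summit lay 177 bp into Fam217b, in an untranslated exon.

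Klhl17-Noc2l on chromosome 4 has starts 984 bp apart and held 2 regions. The region toward Noc2l, which encodes an inhibitor of histone acetylation, had heights of 9.34, 8.56 and 17.9 in control and 3.5, 2.13 and 2.16 in HADA (log2 difference −2.16 ± 0.30, SE, limma adjusted p = 0.00628). Its tallest summit was in an intron 888 bp into Noc2l by the median over libraries, and in HADA 3 it lay nearer to the Noc2l start. The other region, at the Klhl17 start between both 5′ ends, had no peak in any control library and pileups of 91, 68 and 70 in HADA. It was the only member with peaks in 3 of 3 HADA and 0 of 3 control libraries, a pattern found in 7.01% of all merged regions. No member had the opposite pattern, which 1.88% of all regions had. The same pair thus held a region that was lower and a region found in HADA alone.

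The other members called lower with the smallest p were Btbd19-Dynlt4 (a dynein light chain), Fam227a-Cby1 (an antagonist of beta-catenin), Arfip2-Gm45799, Ift80-Smc4 (ciliary transport and condensin), Zfp672-Sh3bp5l, Uqcrh-Lrrc41 (a subunit of respiratory complex III), Mthfd2-Mob1a (a mitochondrial folate enzyme and a Hippo pathway adaptor) and Brca1-Nbr1. Btbd19-Dynlt4 had 3.02, 2.67 and 5.8 in control and 1.79, 1.57 and 1.51 in HADA (−1.15 ± 0.27, SE, limma adjusted p = 0.0111), and its rank of fold enrichment differed by 0.04. The other 7 differed by −0.54 to −0.91 log2. With 1 library left out in turn, Mthfd2-Mob1a was called in 2 of the 6 fits, Uqcrh-Lrrc41 and Zfp672-Sh3bp5l in 3, and Fam227a-Cby1, Arfip2-Gm45799 and Ift80-Smc4 in 4. In raw pileup these 8 overlapped between the groups, as in Uqcrh-Lrrc41 with 392, 388 and 510 reads in control against 544, 388 and 367 in HADA. Over the library background all 41 members called higher were still called, and of the 15 called lower 3 were, although all 15 kept a negative difference. By the rank of fold enrichment, 34 of the 41 kept their direction and 7 were called, and 14 of the 15 kept it and 2 were called.

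**Figure D4:**
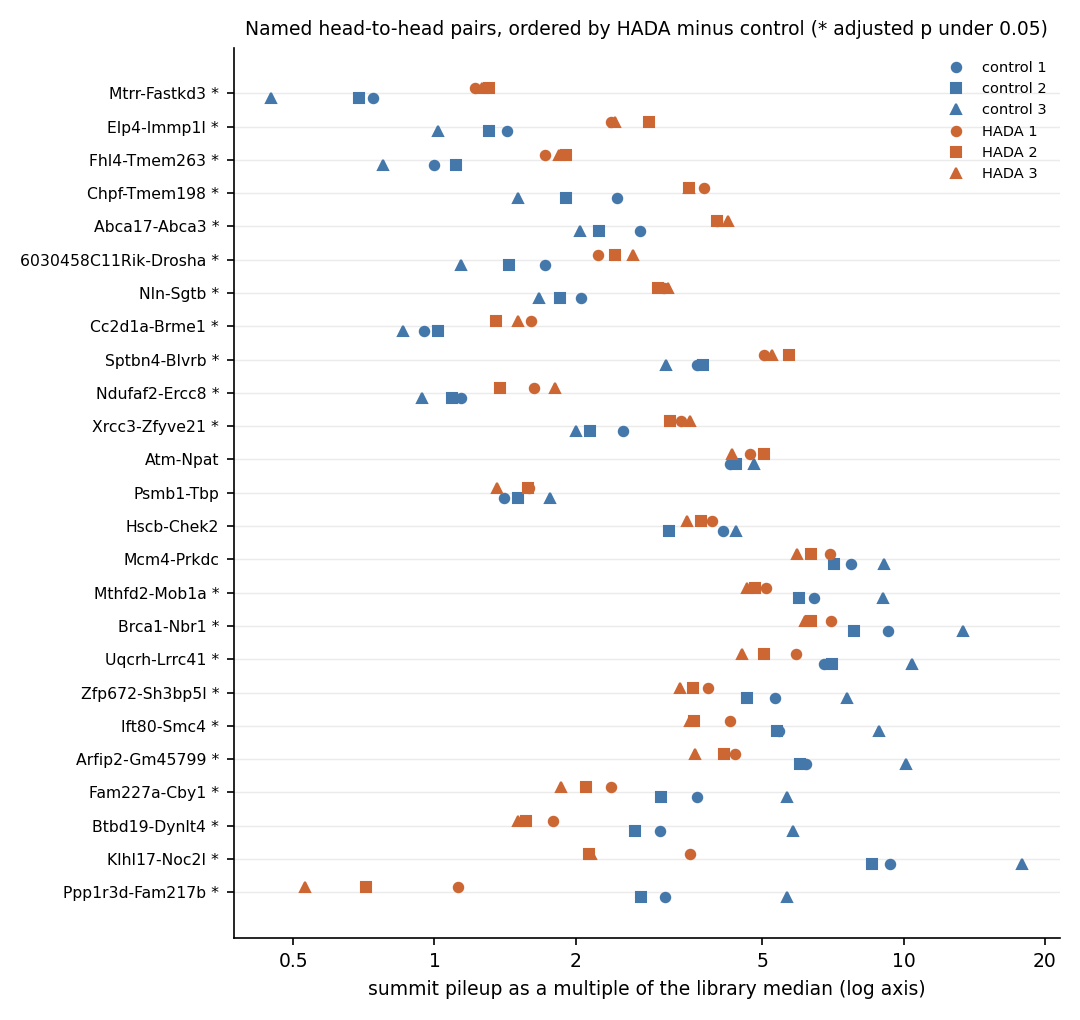
Summit pileup as a multiple of the library median (log axis) for the 10 members per direction with the smallest p and 6 classical pairs, ordered by the log2 difference, 1 point per library (blue control, orange HADA). The groups are apart for all members marked as called, and control 3 is the control farthest from HADA in most of them.

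Of 24 classical head-to-head pairs listed by name, the rule took 7. All 7 had a peak in 6 of 6 libraries. Atm-Npat pairs the kinase of the DNA break response with a regulator of histone genes, with starts 11 bp apart, and had 4.26, 4.4 and 4.8 times the library median in control and 4.7, 5.04 and 4.3 times in HADA (log2 difference 0.06 ± 0.13, SE, limma adjusted p = 0.74). The groups overlapped.

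Mcm4-Prkdc joins a subunit of the replicative helicase to the kinase of DNA end joining and had 7.74, 7.11 and 9.08 in control and 6.97, 6.34 and 5.94 in HADA (−0.31 ± 0.15, limma adjusted p = 0.119). Hscb-Chek2 (iron-sulfur cluster assembly and a checkpoint kinase) differed by −0.06 and Psmb1-Tbp (a proteasome subunit and the TATA-binding protein) by −0.04. Brca1-Nbr1, which pairs a gene of homologous recombination with an autophagy receptor, had 9.28, 7.85 and 13.4 in control and 7.02, 6.36 and 6.16 in HADA (−0.61 ± 0.20, SE, limma adjusted p = 0.0364). Its summit lay 337 bp into Nbr1, and over the library background the difference was −0.23 and no longer called. Ndufaf2-Ercc8, of complex I assembly and transcription-coupled repair, had 1.14, 1.09 and 0.939 in control and 1.63, 1.38 and 1.81 in HADA (0.60 ± 0.18, limma adjusted p = 0.0239). Brca1-Nbr1 was called in 2 of the 6 fits that leave out 1 library and Ndufaf2-Ercc8 in 3.

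Head-to-head pairing was unevenly spread over 8 gene lists. Of 74 replication-dependent histone genes, 27 were paired (36.5%), against 12.6% of 135 DNA repair and replication genes, 8.18% of 379 genes of RNA polymerase, splicing and translation, 7.09% of 268 mitochondrial genes and 2.03% of 542 genes of antigen presentation and leukocytes. For all protein-coding genes the share was 3.7%.

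Over all shared regions 18.4% were called higher and 24.5% lower, and the counts of each list stand against these shares. All 17 pairs of the DNA repair and replication list had a region, of which 2 were called higher (Xrcc3-Zfyve21 and Ndufaf2-Ercc8) and 1 lower (Brca1-Nbr1), with a median difference of −0.04. The mitochondrial list did not hold Elp4-Immp1l, Mtrr-Fastkd3 or Mthfd2-Mob1a, whose mitochondrial genes are described above. Of its 19 pairs 4 were called higher and 1 lower, with a median of −0.14. Those called higher were Esf1-Ndufaf5 and Ndufaf2-Ercc8 of complex I assembly, Wdr4-Ndufv3 with a complex I subunit, and Zfp661-Mrps5 with a mitochondrial ribosomal protein (called in 1 of the 6 fits that leave out 1 library), and the one called lower was Uqcrh-Lrrc41 of complex III. Esf1-Ndufaf5 had 1.05, 0.745 and 0.612 in control and 1.5, 1.36 and 1.42 in HADA (0.87 ± 0.22, SE, limma adjusted p = 0.015). With 1 library left out in turn, Esf1-Ndufaf5 was called in 3 and Wdr4-Ndufv3 in 4 of the 6 fits. Of 28 tested pairs of RNA polymerase, splicing and translation, 1 was called higher (Ddx25-Pus3, with its summit 984 bp into Pus3) and 0 lower (median −0.08). There were 2 in each direction at an unadjusted p under 0.05, and 2 were called by the rank of fold enrichment. Of 13 proteasome and ubiquitin pairs 1 was called higher (Fbxl13-Armc10) and 0 lower, of 10 zinc finger pairs 2 were higher (Zfp277-Dock4 and Zfp661-Mrps5) and 1 lower (Zfp672-Sh3bp5l), and of 13 pairs of vesicle traffic 1 was higher (Galns-Trappc2l) and 0 lower, with medians of 0.03, 0.11 and 0.11. Fbxl13-Armc10 and Galns-Trappc2l were called in 3 and Zfp277-Dock4 in 4 of the 6 fits without 1 library. Of 9 pairs of antigen presentation and leukocytes 0 were called in limma or by the rank of fold enrichment, 1 was higher over the library background and 1 at an unadjusted p under 0.05, the median was −0.21 with 2 positive and 7 negative differences, and the pair with the smallest p, H2-T10-Gm19684, differed by 0.35 (limma adjusted p = 0.0867).

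Of the 13 histone pairs tested, 12 had a positive HADA minus control difference by summit height. The median was 0.31 log2, against −0.04 over all shared regions. There were 5 called higher, a larger share than the 18.4% of all shared regions. Called lower were 0 (0 also at an unadjusted p under 0.05). With both directions pooled, the share called was not above the 42.9% of all shared regions. The list as a whole was not tested. H2ac15-H2bc15 had 2.05, 1.89 and 1.27 in control and 2.49, 3.03 and 2.7 in HADA (0.68 ± 0.20, SE, limma adjusted p = 0.024). H2bc7-H2ac7 had 2.64, 2.18 and 2.29 against 3.25, 3.4 and 3 (0.44 ± 0.14, limma adjusted p = 0.0323). In both, all HADA libraries were above all controls. H2ac22-H2bc22, H2ac8-H2bc8 and H2bc13-H2ac13 were also called. H2ac15-H2bc15 and H2ac22-H2bc22 were called in 3 and H2bc7-H2ac7 in 2 of the 6 fits that leave out 1 library. Over the library background 9 of the 13 were called higher and 0 lower, where 32.2% and 17.6% of all shared regions were. By the rank of fold enrichment 0 of the 13 were called. By that rank H2ac15-H2bc15, H2ac22-H2bc22 and H2bc7-H2ac7 had differences of −0.18, −0.03 and −0.15, so the direction depends on the measure. Histone genes are near copies of each other, and the 50 bases at the summit occurred 5 times in the genome for H2ac24-H2bc24 and 2 times for H2bc23-H2ac23, neither of which was called. Over all 343 members, 339 had a summit sequence found once.

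The sequence at head-to-head summits was CpG-rich. Within 100 bp of the summit the median ratio of observed to expected CpG was 0.84, with 85.7% of regions at 0.6 or more, against 0.81 and 76.2% for single-gene regions and 0.26 and 20.4% for all regions. Genes with a divergent non-coding RNA had 0.86 and 84.1%. The median GC content was 61.7%, below the 65.7% of single-gene regions and above the 49.8% of all regions. Among CpG-rich regions alone, the head-to-head median was 1.34 times the single-gene median, with a log2 difference of 0.32 to 0.63 over the 6 libraries (exact sign-flip permutation p = 0.03125), and 16.3% of 289 members were called against 26.3% of 5787 single-gene regions. Among CpG-poor regions the ratio was 2.2, from 47 members.

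Of 13 motifs searched on both strands in the same windows, 4 had a higher share at head-to-head than at single-gene summits with exact 95% binomial intervals that did not overlap. The intervals cover counting error only. The windows lay at unlike places. The median summit position was −65.1 bp from a paired gene's start and 129 bp from a single-gene start, where negative is upstream. The part of this in the motif shares was not tested. NFY (CCAATCA) matched at 9.91% of head-to-head regions (6.96% to 13.6%) against 4.88% of single-gene regions (4.44% to 5.36%) and 2.71% of all regions. ETS (CCGGAAGT) matched at 7.58% (5.01% to 10.9%) against 4.48% (4.05% to 4.94%) and 1.24%. CRE (TGACGTCA) matched at 4.08% (2.25% to 6.75%) against 1.68% (1.42% to 1.98%) and 0.579%. ZBTB33 (TCTCGCGAG) matched at 2.62% (1.21% to 4.92%) against 0.654% (0.495% to 0.849%) and 0.137%. NRF1 matched at 2.92% against 1.48%, with intervals that overlapped. Within 250 bp of the summit, CRE was no longer among the motifs with intervals apart, and YY1 was, beside NFY, ETS and ZBTB33.

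SP (GGGGCGGGG) matched at 11.4% of both classes, YY1 (ATGGCGG) at 8.16% and 7.63%, and the E-box (CACGTG) at 5.83% and 5.85%. E2F (TTTGGCGC) and the TATA box (TATAAAA) matched at 1.17% and 1.75% of head-to-head regions, against 0.549% and 0.853% of single-gene regions, with intervals that overlapped. The PU1 and RUNX motifs, of factors known in blood cells, and the AP1 motif were less frequent at head-to-head summits than over all regions. PU1 (GAGGAAGT) matched at 1.75% against 4.19%, RUNX (TGTGGTTT) at 0.292% against 2.74%, and AP1 (TGANTCA) at 2.33% against 5.5%. Single-gene promoters had similarly low shares of these 3 (1.99%, 0.701% and 2.54%). ETS and PU1 letters share a core, and a match is a description of letters, not of a bound site. At genes with a divergent non-coding RNA, NFY matched at 8.67%, ETS at 5.96% and CRE at 2.51%, inside the head-to-head intervals, and ZBTB33 at 0.836%, below the head-to-head interval although its own interval (0.362% to 1.64%) overlapped it.

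**Figure D5:**
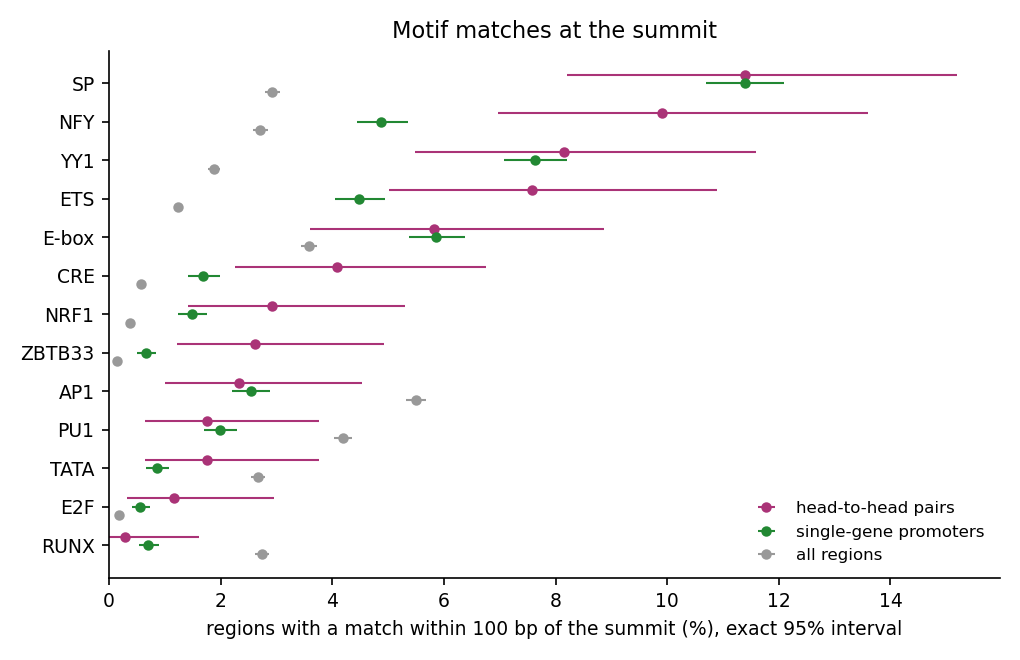
Share of regions (%) with at least 1 motif match within 100 bp of the summit, with the exact 95% interval, for 343 head-to-head, 8558 single-gene and 62876 merged regions. NFY, ETS, CRE and ZBTB33 points of the head-to-head class lie right of the single-gene intervals, and PU1, RUNX and AP1 are lower in both promoter classes than over all regions.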

How the data were processed

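Per the study's methods and the submitters' processing notes, the authors used FastQC, Trimmomatic and Bowtie2 for quality, trimming and alignment to GRCm39, Picard against duplicates, and MACS2 for peaks, called in each library by itself. Options, versions and any shift for Tn5 are not given in the sources used here. Each peak in the deposited lists has a summit, a score, a fold enrichment (ratio over local background), and its q-value and p-value as −log10. Pileup at the summit (reads stacked, a whole number) and background were recovered from the deposited fold and −log10 p-value, and gave both back for 100% of peaks, with a largest relative error of 1.84e-05. Total reads are unknown, so the background pileup stands for relative depth. Of all peaks, 0 ended beyond a GRCm39 chromosome.

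Peaks of all 6 lists that shared 1 bp were merged. A region's value in a library was its tallest pileup. At some members the tallest summit lay at different sites in control and HADA libraries, so their difference compares unlike sites. Regions with a peak in all 6 libraries were compared with limma 3.58.1 (R 4.3.3) on log2 pileup centred on the library median, with empirical Bayes and a trend, Benjamini-Hochberg adjusted over all such regions, and the fit was tested on simulated data. The study's methods state no test for these data. Values of 1 per library were compared with exact permutation tests. Motifs were searched within 100 bp of the tallest summit. The members and lists were chosen with earlier results of these data known. Genes named were 24 classical pairs listed by name where the rule took them (1 is not reported here), the 10 called regions per direction with the smallest p, the 5 highest and 5 lowest, regions of 1 group alone, and up to 3 pairs per list by p. Alternatives included stricter peaks, other gene starts and spacings, other scalings, and leaving out each library.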

Additional observations from a re-analysis of the deposited data

How the results depend on the processing

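The gap in presence, height and width to single-gene promoters kept its direction under every alternative run, among them stricter peaks, equal peak numbers, other spacings and, chosen after seeing the data, canonical transcript starts and CpG-rich regions. Without 1 library the smallest possible sign-flip p is 0.0625, and the values ran from 46.4 to 47.3 percentage points for presence, 0.54 to 0.561 log2 for height and 47.5 to 56.4 bp for width. Against genes with a divergent non-coding RNA, a comparison added after seeing the data, the width difference was 10.3 bp. The HADA minus control difference of centred height ran from −0.0531 to 0.0778 without 1 library and was negative without control 2. The change in the height gap ran from −0.177 to −0.0864 and the difference in presence from 0.345 to 0.864 percentage points.

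Members called higher and lower numbered 7 to 53 and 3 to 26 without 1 library, 94 and 3 over the library background, 13 and 4 by the rank of fold enrichment, and 122 and 57 of 967 when pairs with crossed 5′ ends were also counted. With canonical starts, added later, 52 of 494 were higher and 31 lower. In both of these, as before, 18.4% and 24.5% of all shared regions were called. By the rank of fold enrichment the difference reversed for Chpf-Tmem198 (−0.09), Btbd19-Dynlt4 (0.04), H2ac15-H2bc15 (−0.18), H2ac22-H2bc22 (−0.03) and H2bc7-H2ac7 (−0.15). The cause of these changes was not tested. Regions with peaks in 3 of 3 HADA and 0 of 3 control libraries numbered 0 for spacings up to 500 bp. They numbered 2 with crossed 5′ ends or when peaks had to cover 50% of the region. The mean share of summits between the 5′ ends was 22.9%, and 19.5% for spacings up to 500 bp, 47.4% with crossed 5′ ends, 24.1% when the summit had to lie in the interval, and 29.4% with canonical starts.

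The replicate numbers did not pair the libraries: deviations of same-numbered libraries from their group means correlated by −0.08, 0.08 and −0.38 across regions. With the replicate number as a block, 21 members were called higher and 8 lower, where 13.9% and 24% of all shared regions were, and the paired difference of centred height was 0.0306.

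The lists hold called peaks only, so openness below the calling limit is not seen. Total reads are unknown.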
